A study of Mus musculus with 7 samples.

Results

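A set of 8 genes was followed here in the liver of mice fed a high-fat diet (HFD), namely Pparg, which encodes the nuclear receptor PPARγ, and Cd36, Mogat1, Cidec, Cidea, Plin4, Fabp4 and Vldlr, which are known targets of PPARγ in fat-laden liver. They are 8 of the 51426 genes in the deposited count tables, and all 8 were among the 14754 genes with enough reads to be tested. The 8 genes were selected on measured values, since the comparison of TET1 KO with WT livers described here was known when they were chosen, so the genotype differences of these genes are given as a description and without p-values. Their difference from WT had a median log2 fold change of -1.88, beside a median of 0.01 over all tested genes.

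The samples were livers of 3 WT and 4 TET1 KO male mice labelled as strain C57BL/6J, each sequenced as 1 library of liver mRNA. The knockout was of the whole body, so TET1 was missing from every tissue and not from the liver alone, and the controls were littermates. The study writes these mice as TET1wt/wt and TET1-/-, and its methods give the knockout line as B6;129S4-Tet1tm1.1Jae/J, a name that marks a mixed strain background. All 7 mice were given the HFD, in which 60% of the calories came from fat, from 8 weeks of age for 16 weeks, and no mice on normal chow were included. TET1 is an enzyme that oxidises 5-methylcytosine in DNA, and the comparison asks how the livers of mice on the HFD differ in gene expression without it.

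PPARγ is best known as the master regulator of fat cells, where it binds DNA together with RXR and turns on genes for taking up, binding and storing fatty acids. In healthy liver its level is low, and it is known to rise in steatosis, the storage of fat in droplets within hepatocytes. Its hepatic targets include proteins that bring lipid into the cell, enzymes that build triglyceride, and proteins that coat and fuse lipid droplets.

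The libraries held 15005277 to 22746138 counts, and levels are given as CPM, counts scaled to a common library size, of which 1 CPM stood for 14.2 to 24.1 counts. Tet1 on chromosome 10 had 1 to 4 counts in the WT libraries and 1 to 4 in the TET1 KO libraries, so at this depth the gene does not check the genotype labels. On the first principal component of log2 CPM (48.7% of the variance) WT replicate 2 (-56.9) and TET1 KO replicate 1 (57.1) lay farthest out, with the other WT livers at -28.9 and -19.4 and the other TET1 KO livers between 1.60 and 25.8. On the second (16.0%) TET1 KO replicates 1 (31.3) and 2 (-34.1) were the extremes. One library stood apart in its fat cell transcripts. TET1 KO replicate 2 held 60 counts of Adipoq, which encodes the fat cell hormone adiponectin, whereas WT replicate 2 held 9 and the other 5 libraries held 0. It also held 70 counts of Plin1, the perilipin of fat cells, beside 4 in WT replicate 2, 1 in TET1 KO replicate 1 and 0 in the rest. Lep, which encodes leptin, had 6 counts in TET1 KO replicate 2 and 17 in WT replicate 2. The sum of 5 fat cell markers (Adipoq, Lep, Retn, Cfd and Plin1) was 19.4 CPM in TET1 KO replicate 2, 2.10 to 3.25 CPM in the WT livers and 0.278 to 0.614 CPM in the other TET1 KO livers. The full list of 9 fat cell markers, all found, also holds Fabp4, Cidea, Adrb3 and Lipe, and summed to 34.2 to 59.7 CPM in WT and 47.7 to 136 CPM in TET1 KO livers. Without Fabp4 and Cidea, which are among the genes followed here, the other 7 markers summed to 19.2 to 29.0 CPM in WT and 38.4 to 77.1 CPM in TET1 KO livers, with no overlap (exact two-sided permutation p = 0.0571, not adjusted). That is the lowest p this test can give for 3 against 4 mice, so it could not fall under 0.05. Adrb3 and Lipe were higher in mean in TET1 KO livers and make up most of the sum of these 7 markers in every library. The 5 markers were picked without them after the values were seen. Because fat cells express several of the genes followed here, values are given with and without TET1 KO replicate 2 where it matters. The part of the fat cell transcripts in these values was not tested.

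Sequence before the listed transcription starts of the genes was read from RefSeq (build GRCm38.p6) to describe these start sites. Some of the windows lie inside the range of the gene. Windows of 250 bases before a transcription start were found for 6 of the 8 genes, 10 windows in all, and not for Cidea and Fabp4. PPARγ with RXR is known to bind the element AGGTCA repeated in the same direction with 1 base between. Both strands were searched for it, allowing at most 2 mismatches over both copies, and 3.24% of the 32851 windows of all genes held such a match. Of the 10 windows of these 6 genes, 2 held one, in 2 of the genes. In Cd36 (window chr5:17835897-17836146, minus strand) the match lay on the opposite strand, 63 to 51 bases before the listed start. That start lies inside the range of the gene (chr5:17781690-17888959) and not at its outer end. In Mogat1 (window chr1:78510810-78511059, plus strand) the match lay on the same strand, 51 to 39 bases before the start. Both are shown 5′ to 3′ along the gene with the match in capitals, because these are the genes with the lowest TET1 KO level relative to WT among those whose groups did not overlap.
Cd36: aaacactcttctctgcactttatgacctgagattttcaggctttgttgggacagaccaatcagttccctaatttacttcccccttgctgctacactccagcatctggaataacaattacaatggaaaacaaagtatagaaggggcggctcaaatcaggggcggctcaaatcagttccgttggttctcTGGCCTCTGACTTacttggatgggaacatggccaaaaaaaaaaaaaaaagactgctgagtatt
Mogat1: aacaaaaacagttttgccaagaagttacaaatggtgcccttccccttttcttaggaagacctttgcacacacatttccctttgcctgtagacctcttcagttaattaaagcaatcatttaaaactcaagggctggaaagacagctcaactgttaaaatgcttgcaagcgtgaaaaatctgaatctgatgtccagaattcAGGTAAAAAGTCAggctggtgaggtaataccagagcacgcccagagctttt
A match of letters describes the window and is not a measured binding site. The windows of Pparg, Cidec, Plin4 and Vldlr held no match by this rule.

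For Pparg, 3 start sites were listed, and their windows differed widely in CpG, the dinucleotide at which mammalian DNA is methylated. The first window (chr6:115360894-115361143, plus strand) held 38 CpG, which 1.88% of all windows reach, and the last (chr6:115421816-115422065, plus strand) held 2, beside a median of 6 over all windows. The window between them held 12. The first and last are printed with each CpG in capitals to show this difference.
Pparg, first start: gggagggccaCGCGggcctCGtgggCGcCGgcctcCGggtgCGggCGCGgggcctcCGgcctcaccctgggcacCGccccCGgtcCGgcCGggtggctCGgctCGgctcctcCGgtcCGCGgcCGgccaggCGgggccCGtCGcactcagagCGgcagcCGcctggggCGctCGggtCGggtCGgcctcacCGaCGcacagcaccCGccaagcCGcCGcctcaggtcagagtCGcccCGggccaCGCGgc
Pparg, last start: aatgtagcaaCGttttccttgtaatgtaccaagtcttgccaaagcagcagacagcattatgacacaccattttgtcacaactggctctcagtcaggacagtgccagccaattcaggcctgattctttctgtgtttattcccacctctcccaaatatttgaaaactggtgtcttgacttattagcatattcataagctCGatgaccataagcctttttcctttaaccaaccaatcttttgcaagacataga
DNA methylation was not analysed here, and counts per gene do not tell which start a Pparg transcript came from.

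Pparg (ENSMUSG00000000440, chr6:115360879-115490404 in GRCm38.p6) had 17.1, 15.4 and 8.11 CPM in the 3 WT livers and 2.44, 6.06, 4.35 and 4.69 CPM in TET1 KO replicates 1 to 4. The TET1 KO livers all lay below the WT livers, and the nearest pair were WT replicate 3 and TET1 KO replicate 2. The mean was 13.5 ± 4.77 CPM (SD, n = 3) in WT and 4.38 ± 1.49 CPM (SD, n = 4) in TET1 KO livers, which was 32.4% of the WT mean, and the log2 fold change was -1.63 (SE 0.31). Without TET1 KO replicate 2 it was -1.83 (SE 0.33). In whole liver tissue, fewer cells of a type and less RNA per cell cannot be told apart, and this holds for every value given here.

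Of the 8 genes, 5 showed this separation of all TET1 KO from all WT livers, namely Pparg, Cd36, Mogat1, Plin4 and Vldlr. Since this contrast was known when the genes were chosen, nothing is read from this count. Among all tested genes, 10.8% had every TET1 KO liver below every WT liver, and in edgeR's test 1.15% were called lower and 0.874% higher at an adjusted p under 0.05. Without TET1 KO replicate 2, each of the 8 genes had its TET1 KO livers below its WT livers, as did 13.1% of all tested genes.

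**Figure D1:**
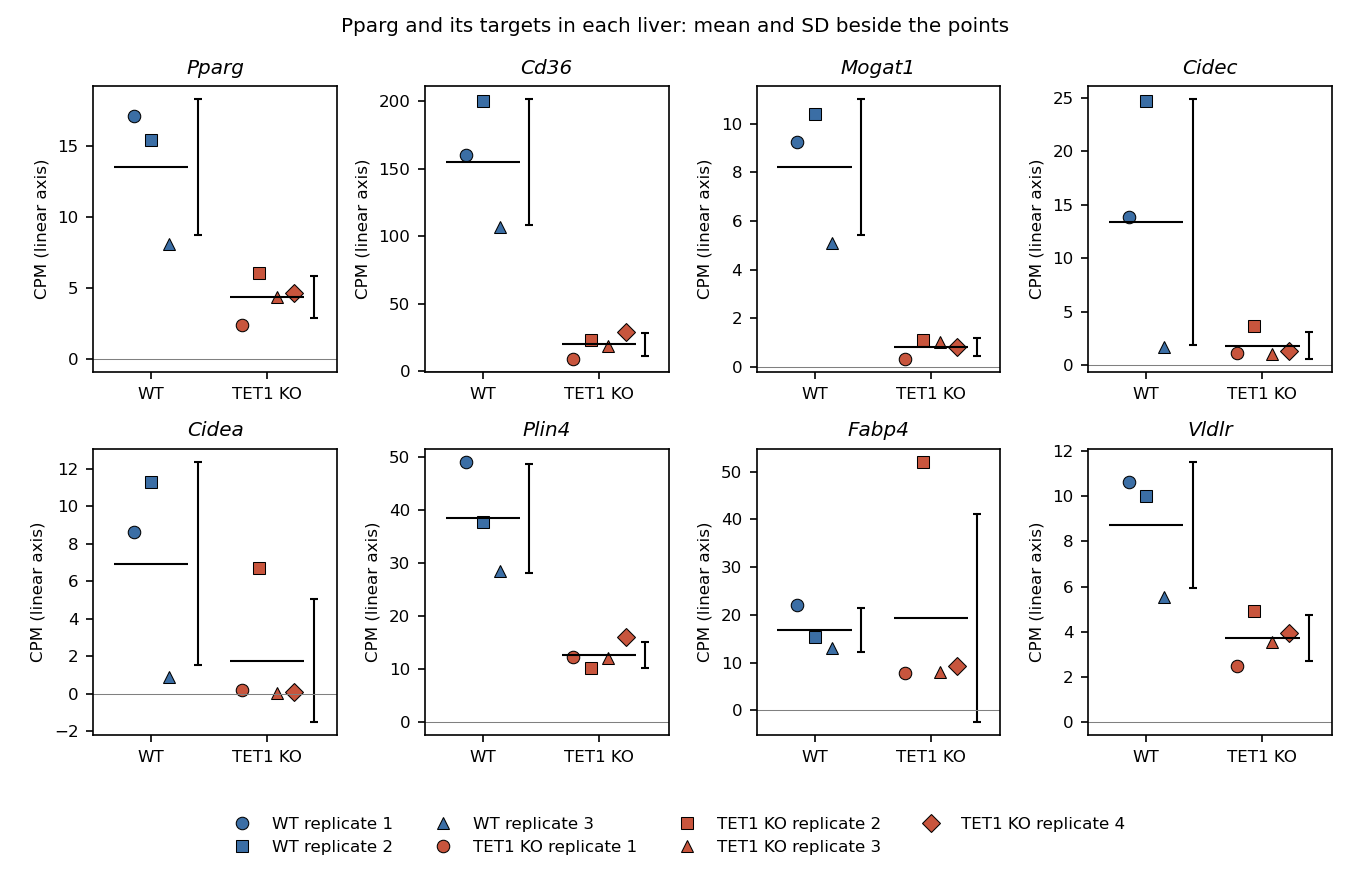
Level of each of the 8 genes in each liver in CPM on linear axes that differ between panels, with WT in blue and TET1 KO in red, the replicate number shown by the symbol, the group mean as a horizontal line and 1 SD as the bar beside it. Pparg, Cd36, Mogat1, Plin4 and Vldlr separate the genotypes, while TET1 KO replicate 2 (red square) stands apart in Cidec, Cidea and Fabp4.

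The first group of targets brings lipid into the cell. Cd36 (ENSMUSG00000002944, chr5:17781690-17888959), the scavenger receptor that takes up long-chain fatty acids, had 160, 200 and 107 CPM in the WT livers and 8.77, 22.8, 18.7 and 29.2 CPM in TET1 KO replicates 1 to 4. The lowest WT liver was 3.66-fold above the highest TET1 KO liver. The mean was 155 ± 46.6 CPM in WT and 19.9 ± 8.57 CPM in TET1 KO livers, or 12.8% of the WT mean, and the log2 fold change was -2.97 (SE 0.34). TET1 KO replicate 2 was not the highest of its group here, and without it the log2 fold change was -3.05 (SE 0.40).

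Vldlr (ENSMUSG00000024924, chr19:27216480-27254231), the receptor for triglyceride-rich lipoproteins, had 10.6, 9.99 and 5.52 CPM in WT and 2.50, 4.93, 3.53 and 3.94 CPM in TET1 KO replicates 1 to 4. The groups did not overlap, but the lowest WT liver was only 1.12-fold above the highest TET1 KO liver, the narrowest gap of the 5 separated genes. The TET1 KO mean was 42.8% of the WT mean, and the log2 fold change was -1.23 (SE 0.27).

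Fabp4 (ENSMUSG00000062515, chr3:10204342-10208616) encodes the fatty acid binding protein of fat cells and macrophages, which carries fatty acids within the cell. It had 22.0, 15.3 and 13.1 CPM in WT and 7.89, 52.0, 8.03 and 9.23 CPM in TET1 KO replicates 1 to 4. TET1 KO replicate 2 exceeded every WT liver, while the other 3 TET1 KO livers lay below every WT liver. The log2 fold change was 0.19 (SE 0.61) over all livers and -1.01 (SE 0.22) without TET1 KO replicate 2, in which the TET1 KO mean was 50.0% of the WT mean. The direction of the difference thus rested on that library, the same one that held the fat cell transcripts.

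Mogat1 (ENSMUSG00000012187, chr1:78511060-78606964) encodes a monoacylglycerol acyltransferase, an enzyme of triglyceride synthesis. It had 9.25, 10.4 and 5.08 CPM in WT and 0.313, 1.13, 1.02 and 0.835 CPM, from 5, 16, 20 and 18 counts, in TET1 KO replicates 1 to 4. The lowest WT liver was 4.50-fold above the highest TET1 KO liver, the widest gap of the 8 genes. The mean was 8.23 ± 2.79 CPM in WT and 0.825 ± 0.362 CPM in TET1 KO livers, and its log2 fold change was -3.31 (SE 0.35).

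The remaining targets sit on lipid droplets. Plin4 (ENSMUSG00000002831, chr17:56100587-56109948), a perilipin that coats small droplets, had 49.0, 37.7 and 28.4 CPM in WT and 12.4, 10.2, 12.1 and 16.1 CPM in TET1 KO replicates 1 to 4. It had the lowest spread of the 8 genes among TET1 KO livers, with a coefficient of variation of 19.2%, but not without TET1 KO replicate 2, where Fabp4 (8.80%) and Cidec (14.1%) were below it (16.2%). Its TET1 KO mean was 33.1% of the WT mean, and the log2 fold change was -1.59 (SE 0.20). TET1 KO replicate 2 had the lowest Plin4 of its group.

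Cidec (ENSMUSG00000030278, chr6:113424634-113435760), a protein that moves lipid from smaller into larger droplets, had 13.9, 24.7 and 1.71 CPM in WT and 1.13, 3.66, 1.02 and 1.35 CPM in TET1 KO replicates 1 to 4. WT replicate 3 lay below TET1 KO replicate 2, so the groups overlapped. The log2 fold change was -2.95 (SE 0.69), and it lay between -2.18 without WT replicate 2 and -3.54 (SE 0.75) without TET1 KO replicate 2. WT replicate 3 was 1.27-fold above the highest of the other 3 TET1 KO livers.

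Cidea (ENSMUSG00000024526, chr18:67343564-67367794), a relative of Cidec that acts at droplet contacts in brown fat and in steatotic liver, varied most among TET1 KO livers, with a coefficient of variation of 187%, while among WT livers Cidec varied more (85.5% against 78.0%). Its counts were 176, 273 and 16 in WT and 3, 95, 1 and 2 in TET1 KO replicates 1 to 4, which correspond to 8.66, 11.3 and 0.883 CPM and to 0.188, 6.69, 0.0511 and 0.0928 CPM. TET1 KO replicates 1, 3 and 4 were thus at or under 3 counts, while TET1 KO replicate 2 was near the WT livers with the most Cidea. The log2 fold change over all livers was -2.12 (SE 1.12). Set against TET1 KO replicates 1, 3 and 4, which together held 6 counts, the WT livers were 70.7-fold higher (95% exact interval 32.2 to 194, counting error only), and WT replicate 3 alone, with 16 counts, was 8.40-fold higher (3.12 to 26.2).

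**Figure D2:**
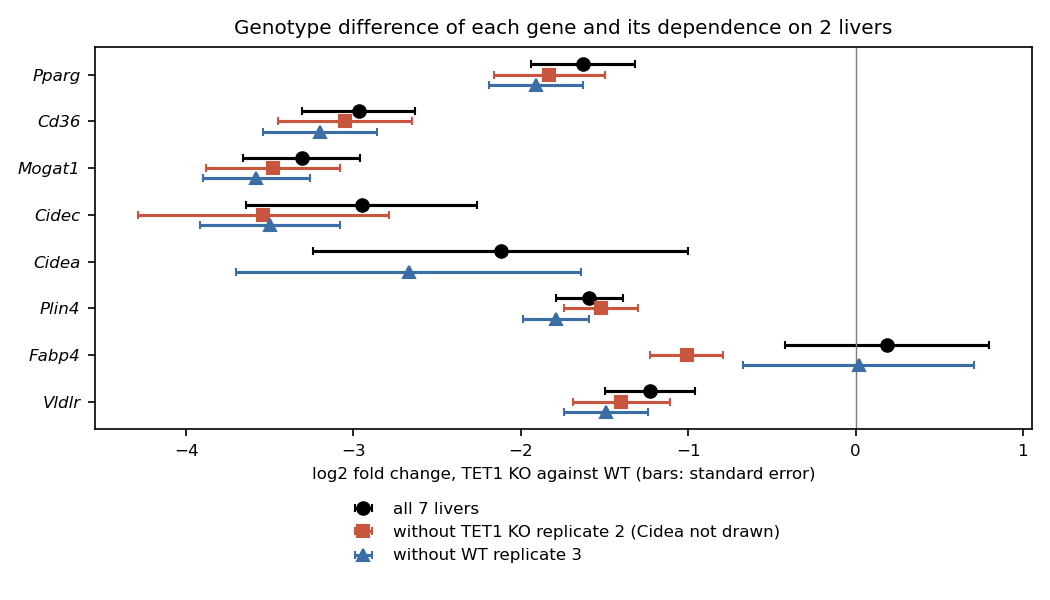
Log2 fold change of TET1 KO against WT for each gene with its standard error as the bar, from all 7 livers (black), without TET1 KO replicate 2 (red) and without WT replicate 3 (blue). Fabp4 moves from 0.19 to -1.01 without TET1 KO replicate 2, and the Cidea point of that fit is not drawn because its 3 remaining TET1 KO libraries hold at most 3 counts each.

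Levels of different genes were compared per kilobase of exon (CPM per kb). In WT livers Cd36 was highest at 39.6 ± 11.9 CPM per kb and Fabp4 next at 26.3 ± 7.30, values that differed by less than the sum of their SDs. Cidec (7.24 ± 6.19), Pparg (6.82 ± 2.40), Plin4 (6.67 ± 1.79), Cidea (5.97 ± 4.66) and Mogat1 (5.28 ± 1.79) followed and did not differ beyond their spread. Vldlr was lowest at 0.865 ± 0.277 CPM per kb. In TET1 KO livers the mean levels were 30.3 CPM per kb for Fabp4, 5.06 for Cd36, 2.21 for both Pparg and Plin4, 1.51 for Cidea, 0.964 for Cidec, 0.529 for Mogat1 and 0.370 for Vldlr. The Fabp4, Cidea and Cidec means of this group carry the value of TET1 KO replicate 2. Without it they were 13.2, 0.0950 and 0.628 CPM per kb, so that Cidea became the lowest of the 8 genes.

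The livers also differed within each genotype, and the targets were set beside Pparg mouse by mouse. With 3 and 4 mice a genotype, the orders of the livers are given and no correlation. WT replicate 3 had the lowest Pparg of the WT livers and also the lowest value of all 7 targets, a place it took in 27.1% of tested genes. TET1 KO replicate 1 had the lowest Pparg of its group and the lowest Cd36, Mogat1, Fabp4 and Vldlr, 4 of the 7 targets, and it was lowest in 32.5% of tested genes. Both places together were taken by those 4 targets and by 8.63% of tested genes. TET1 KO replicate 2, with the highest Pparg of its group, was highest in 5 of the 7 targets (all but Cd36 and Plin4) and in 21.9% of tested genes. It is the library that held the fat cell transcripts, and it stood far above its group in Fabp4, Cidea and Cidec. The part of those transcripts in these orders was not tested. Vldlr and Fabp4 ordered the livers exactly as Pparg did in both genotypes, as did 80 (0.542%) of the tested genes. Among TET1 KO livers the Fabp4 order rests on small steps, 7.89, 8.03 and 9.23 CPM in replicates 1, 3 and 4, below 52.0 CPM in replicate 2. Pparg itself had 4.35 and 4.69 CPM in TET1 KO replicates 3 and 4.

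**Figure D3:**
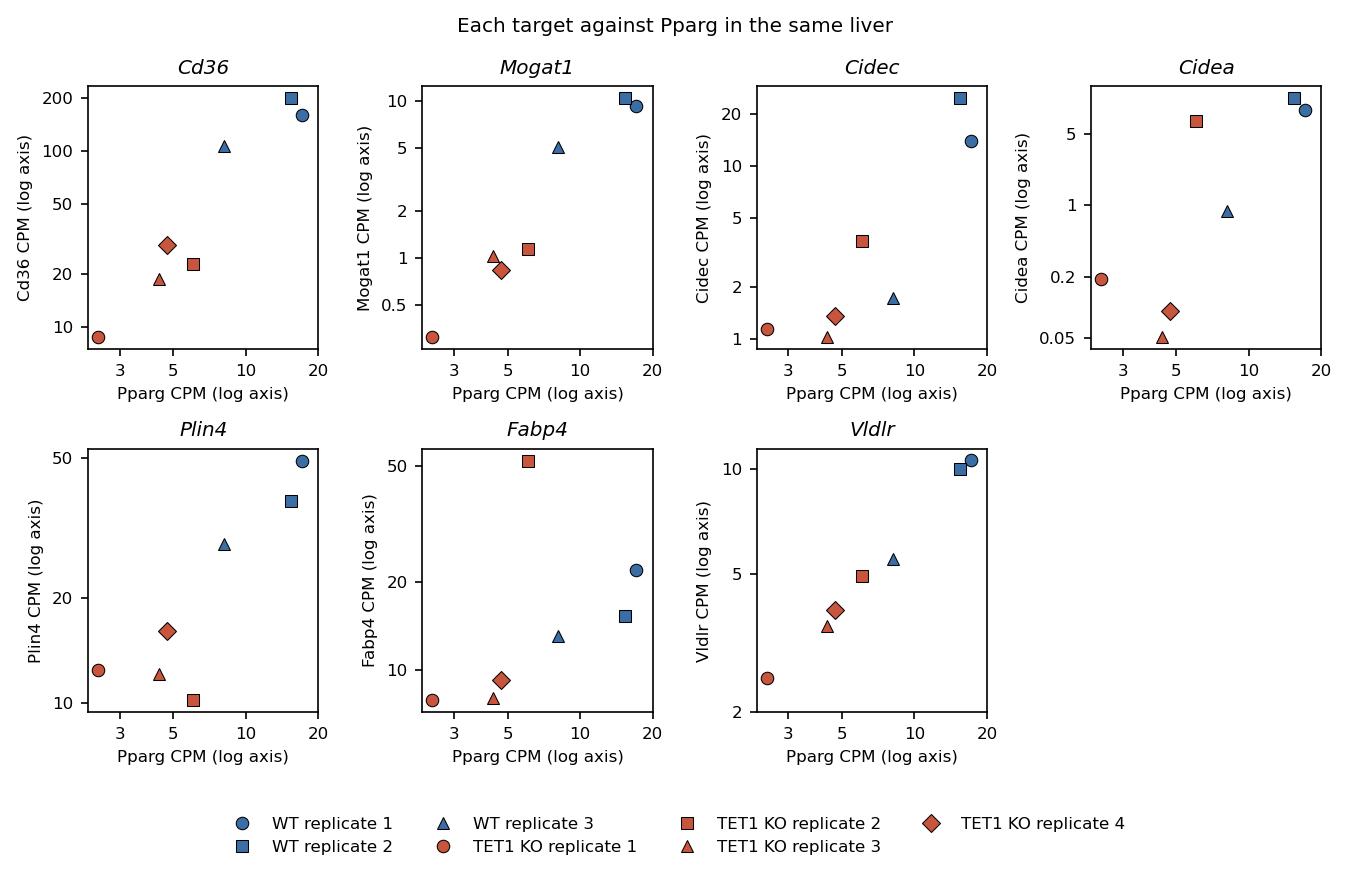
Level of each target (vertical, CPM, log axis) against the level of Pparg (horizontal, CPM, log axis) in the same liver, with WT in blue, TET1 KO in red and the replicate number shown by the symbol. Vldlr runs with Pparg through both genotypes, Cd36 and Mogat1 form a high WT and a low TET1 KO group, and TET1 KO replicate 2 lies far above the other TET1 KO livers in Fabp4 and Cidea.

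The ratio of a target to Pparg in the same liver was set out to compare the size of the differences with that of Pparg. Cd36 was 9.35, 13.0 and 13.2 times the CPM of Pparg in the WT livers and 3.59, 3.76, 4.29 and 6.24 times in TET1 KO replicates 1 to 4. Mogat1 was 0.613 ± 0.0660 times Pparg in WT and 0.182 ± 0.0438 times in TET1 KO livers. For both genes the ratios of the genotypes did not overlap. Plin4 was 2.94 ± 0.533 times Pparg in WT and 3.24 ± 1.42 times in TET1 KO livers, with overlapping ratios. The ratio of Vldlr to Pparg was 0.650 ± 0.0290 in WT and 0.873 ± 0.103 in TET1 KO livers, so this target was less reduced than Pparg, and the ratios did not overlap. The ratio of Fabp4 to Pparg was 0.989 to 1.61 in WT livers, 8.58 in TET1 KO replicate 2 and 1.85 to 3.23 in the other TET1 KO livers. For Cidec the ratio was 0.211 to 1.60 in WT and 0.235 to 0.605 in TET1 KO livers, and for Cidea it was 0.109 to 0.734 and 0.0118 to 1.10, both with overlap. These ratios use the contrast on which the genes were selected and were not tested.

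Likeness to Pparg was measured as the root mean square difference in log2 CPM over the livers, after each gene's own mean had been subtracted, and the 14753 other tested genes were ranked by it. Over the 7 livers this likeness includes the genotype difference on which the genes were selected, so these ranks are a description only. Vldlr ranked 3, with a difference of 0.23, and Plin4 ranked 93. Cd36 ranked 2353 and Mogat1 3485, both with a larger genotype difference than Pparg, while Fabp4 ranked 6905, Cidec 6910 and Cidea 14668. Without TET1 KO replicate 2, Vldlr ranked 6, Plin4 20, Fabp4 204, Cd36 1336, Mogat1 2621, Cidec 6948 and Cidea 14441. With the mean of each genotype subtracted, so that only differences between mice of one genotype counted, Vldlr again ranked 3, Mogat1 ranked 10 and Cd36 ranked 165, but Plin4 ranked 3566, Fabp4 12872, Cidec 14176 and Cidea 14740. Without TET1 KO replicate 2, Fabp4 ranked 735 and Plin4 431 by this second measure, Mogat1 72, Cd36 438 and Vldlr 4, and Cidec (14327) and Cidea (14480) remained near the end. With a prior count of 0.5 in place of 2, Mogat1 ranked 40 within genotype.

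The 6 genes nearest to Pparg over the 7 livers were Stap1, Phospho1, Vldlr, Ccdc3, Gstm3 and Tubb2a, with differences of 0.15 to 0.28. Stap1, which encodes a signalling adaptor protein, had 9.15, 8.17 and 4.53 CPM in WT and 1.57, 3.87, 3.07 and 2.83 CPM in TET1 KO replicates 1 to 4. Within genotype the nearest were Stap1, Gas1, Vldlr, Cyp8b1, Tuba1a and Serpina6, with differences of 0.06 to 0.17. Some of these differed little between the genotypes. All were picked as the nearest of 14753 genes by this same measure, and some genes come out near in any such ranking. Their closeness to Pparg from mouse to mouse is thus a description only. Serpina6, the corticosteroid-binding globulin of plasma, had a log2 fold change of 0.02 (SE 0.23, adjusted p = 0.96 in edgeR's quasi-likelihood test with Benjamini-Hochberg adjustment), and Gas1 one of 0.14 (SE 0.30, adjusted p = 0.791). Cyp8b1, the sterol 12-hydroxylase of bile acid synthesis, had -0.78 (SE 0.33, adjusted p = 0.167).

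The receptors, partners and coregulators of the PPAR family, a list that leaves out Pparg itself, gave no call. Of 30 listed genes 27 were tested, and 0 passed edgeR's adjusted p, where 1.15% of all tested genes were called lower and 0.874% higher. An unadjusted p under 0.05 was found for 7 of the 27 and for 26.3% of all tested genes. DESeq2 called 2 of them, Crebbp and Ppargc1b, both higher, and of all genes it called 4.89% higher and 4.99% lower. The median log2 fold change of the list was 0.20, beside 0.01 over all tested genes. Ppara, the PPAR of fatty acid oxidation and the main one of hepatocytes, had 40.0, 66.7 and 38.7 CPM in WT and 63.2, 42.8, 40.0 and 36.6 CPM in TET1 KO livers, and its log2 fold change was -0.09 (SE 0.23, adjusted p = 0.83). Ppard had 0.45 (SE 0.20, adjusted p = 0.181). Rxra, which encodes the partner that PPARγ needs on DNA, had 0.04 (SE 0.19, adjusted p = 0.916), and Nr1h3, which encodes the oxysterol receptor LXRα, had 0.25 (SE 0.11, adjusted p = 0.192). Nr1h3 spanned 80.0 to 89.0 CPM in WT and 96.3 to 102 CPM in TET1 KO livers.

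A further 44 known PPARG targets were listed, of which 37 were tested, 4 were called lower and 1 higher, beside the 1.15% and 0.874% of all tested genes given above. The median log2 fold change of the list was -0.21, and 16 of the 37 genes had an unadjusted p under 0.05, beside 26.3% of all tested genes. Plin2, the main droplet coat protein of hepatocytes, had 463, 594 and 360 CPM in WT and 177, 231, 233 and 298 CPM in TET1 KO livers, with no overlap and a log2 fold change of -1.01 (SE 0.21, adjusted p = 0.0382). Me1, the malic enzyme that supplies NADPH for fatty acid synthesis, had 148, 260 and 105 CPM in WT and 35.2, 13.8, 16.3 and 58.9 CPM in TET1 KO livers, and its log2 fold change was -2.46 (SE 0.46, adjusted p = 0.0271).

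Gpam, the acyltransferase of the first step of glycerolipid synthesis, fell by 1.60 on the log2 scale (SE 0.34, adjusted p = 0.0440). WT replicate 2 had 74.7 CPM of it and the other WT livers 23.8 and 25.8 CPM, and without WT replicate 2 its log2 fold change was -0.86. Clstn3 had a log2 fold change of -1.47 (SE 0.28, adjusted p = 0.0295). Slc27a1, a fatty acid transport protein, rose, with 5.60 to 5.79 CPM in WT and 9.09 to 10.2 CPM in TET1 KO livers and a log2 fold change of 0.75 (SE 0.15, adjusted p = 0.0351). Lpl, lipoprotein lipase, had 36.5, 19.6 and 25.1 CPM in WT and 18.6, 45.2, 20.9 and 17.3 CPM in TET1 KO replicates 1 to 4, with the high value in the library that carried the fat cell transcripts, and its log2 fold change was -0.09 (SE 0.33, adjusted p = 0.879), and -0.53 (adjusted p = 0.197) without that library. The 5 calls depended on single livers. Leaving out WT replicate 2 left none of them, as did leaving out TET1 KO replicate 1 or TET1 KO replicate 2. Clstn3 alone was kept without TET1 KO replicate 3, Me1 and Gpam were kept without WT replicate 1, all but Slc27a1 without WT replicate 3, and all 5 without TET1 KO replicate 4. The adjusted p of Plin2, Me1, Gpam, Clstn3 and Slc27a1 without WT replicate 2 was 0.191, 0.149, 0.0897, 0.149 and 0.149, and each kept its direction there. With scaling by library size only, the call of Slc27a1 was lost (log2 fold change 0.66, adjusted p = 0.0521) and the list held 6 lower and 0 higher calls. With robust dispersions the calls of Me1 (adjusted p = 0.0765) and Gpam (0.0727) were lost, and with the replicate block that of Clstn3 (0.0512).

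The closest relatives of the 8 genes gave 1 call of 18 tested (22 listed), Plin2, with a median log2 fold change of 0.15 and 4 of the 18 at an unadjusted p under 0.05, beside 1.15% of all tested genes called lower and 26.3% with an unadjusted p under 0.05. The call of Plin2 was lost without WT replicate 1, WT replicate 2 or TET1 KO replicate 1, 2 or 3, at an adjusted p of up to 0.191. Scarb1, the HDL receptor related to Cd36, had 91.5 to 115 CPM in WT and 114 to 133 CPM in TET1 KO livers, and its log2 fold change was 0.24 (SE 0.13, adjusted p = 0.261). Cideb, the CIDE protein of normal hepatocytes, had 243 to 286 CPM in WT and 283 to 305 CPM in TET1 KO livers, with 0.18 (SE 0.13, adjusted p = 0.378), beside -2.95 for Cidec. Fabp1, the liver form of the fatty acid binding proteins, had 0.18 (SE 0.30, adjusted p = 0.72), and Fabp5 had 1.28 (SE 0.41, adjusted p = 0.0956). Mogat2 was at or under 0.497 CPM in each liver and was not tested. The differences between a gene and its relative were not tested.

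**Figure D4:**
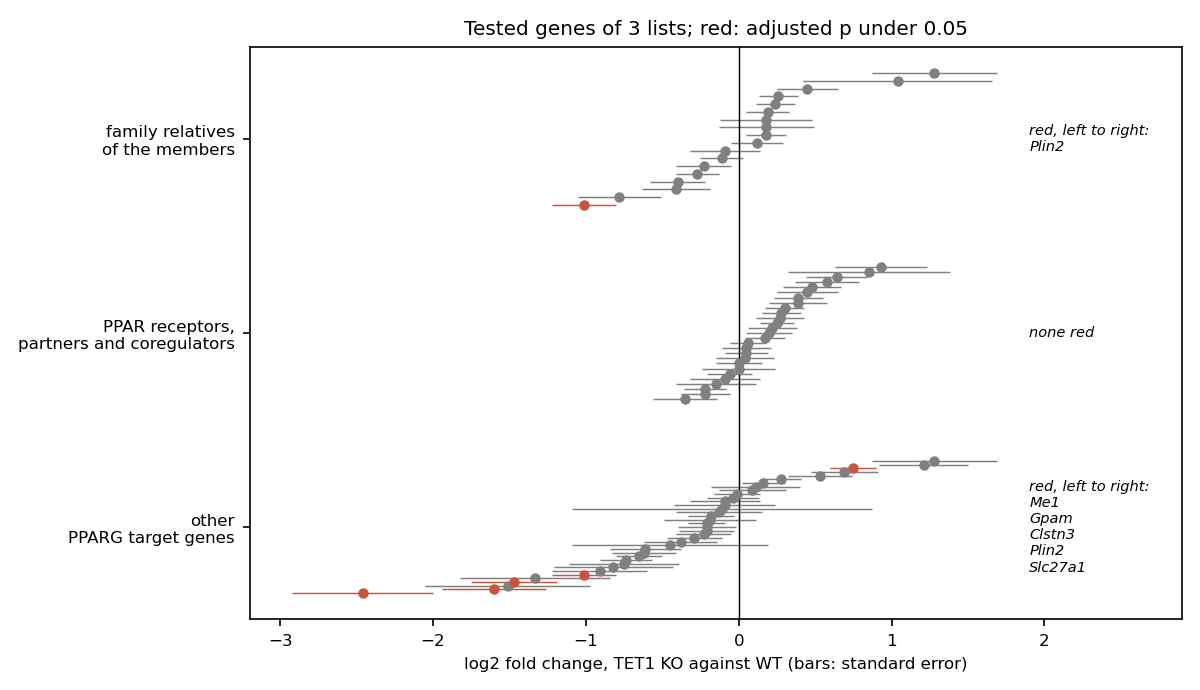
Log2 fold change of TET1 KO against WT (horizontal, bars are standard errors) for the tested genes of the 3 lists, with genes at an adjusted p under 0.05 in red. Red points are Me1, Gpam, Clstn3, Plin2 and Slc27a1 among the further PPARG targets, Plin2 among the relatives and none among the receptors, partners and coregulators.

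Markers of the cell types that liver tissue holds are given beside these results, since endothelial cells and macrophages also express Cd36 and Fabp4. Endothelial markers (10 of 10 found) summed to 242 to 265 CPM in WT and 225 to 268 CPM in TET1 KO livers. Macrophage markers (12 of 12) summed to 349 to 586 CPM and 263 to 556 CPM, and those of lipid-associated macrophages (7 of 7) to 63.6 to 96.4 CPM and 57.8 to 105 CPM, with Cd9 called lower among the latter. Stellate cell markers (8 of 8) summed to 242 to 389 CPM and 222 to 297 CPM, with Rgs5 called lower. Hepatocyte markers (9 of 10) summed to 66700 to 87100 CPM and 78700 to 85100 CPM, so the libraries carried the defining transcripts of liver. In exact two-sided permutation tests of the summed levels, whose smallest possible p is 0.0286 for 3 against 4 mice, the adjusted p of these 5 lists, adjusted over 6 with the fat cell list, lay between 0.823 and 1. No test is read from the full fat cell list, which holds Fabp4 and Cidea. Among the fat cell markers Adrb3 was called higher, with 4.19 to 14.7 CPM in WT and 27.2 to 48.0 CPM in all 4 TET1 KO livers (log2 fold change 2.00, SE 0.36, adjusted p = 0.0218 in edgeR's test). That call was lost without TET1 KO replicate 2 or 3 (adjusted p of up to 0.0660), the call of Cd9 without any 1 of the WT livers or without TET1 KO replicate 3 (up to 0.0905), and the call of Rgs5 in 6 of 7 fits (up to 0.206, all but that without TET1 KO replicate 4). Adipoq and Plin1 did not follow Adrb3, at 0 to 1 counts in TET1 KO replicates 1, 3 and 4. The share of mitochondrial counts ran from 7.20% in WT replicate 2 to 14.4% in TET1 KO replicate 1 and overlapped between the genotypes, and its part in these results was not tested.

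**Figure D5:**
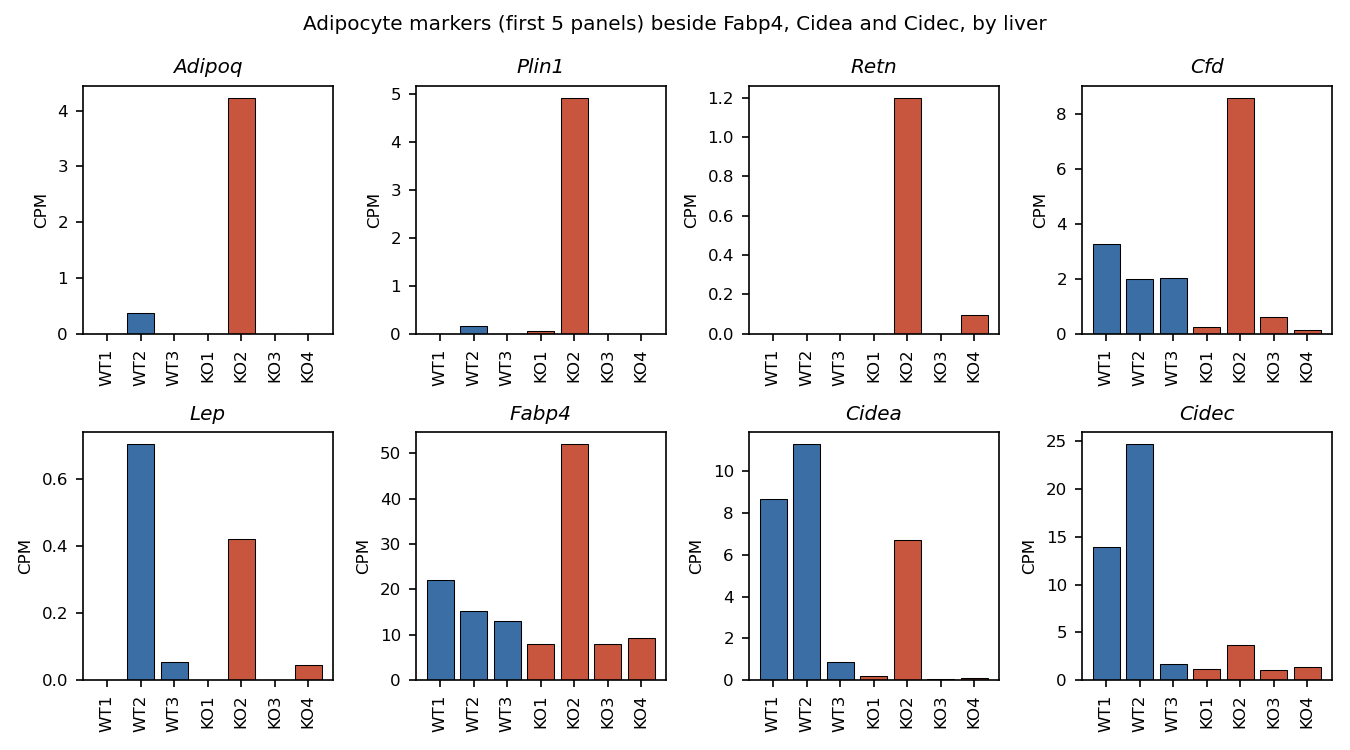
Level in CPM (bars from 0, axes differ between panels) of 5 fat cell markers and of Fabp4, Cidea and Cidec in each liver, with WT in blue and TET1 KO in red and the replicate number under each bar. Adipoq, Plin1, Retn and Cfd are highest in TET1 KO replicate 2, the library in which Fabp4 reaches 52.0 CPM and Cidea 6.69 CPM.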

How the data were processed

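Livers of 3 WT and 4 TET1 KO mice were profiled by mRNA sequencing and grouped by the sample labels. The authors deposited 1 table of raw read counts per mouse, not normalized. The submitters' processing notes name Trimmomatic 0.36, GSNAP, featureCounts 1.5.3 and the build GRCm38. The annotation release and the strand setting of the counting are not given in the sources used here, so reads of overlapping or antisense genes cannot be told apart. Nothing in the labels names separate litters or batches. Tables were joined by Ensembl identifier, since 26 identifiers had differing symbols between tables, and 5 repeated entries were left out, which left 51426 genes.

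The counts were fitted with edgeR 4.0.16 in R 4.3.3 (filterByExpr, TMM, glmQLFit with legacy = FALSE and robust = FALSE, no covariates), with Benjamini-Hochberg adjustment over 14754 genes and calls at an adjusted p under 0.05. The common biological coefficient of variation was 0.208. CPM are scaled by TMM, with a prior count of 2 on the log2 scale. The size of each log2 fold change divided by the square root of F gave its standard error. Exon lengths were those of GENCODE M1 and gene coordinates those of RefSeq (GRCm38.p6). DESeq2 1.42.0 was an alternative test. Marker sums were compared by exact permutation over 35 splits. The scripts were tested on simulated data. Library sizes of 15005277 to 22746138 counts set the precision, and genes at or under 3 counts a library were taken as at the floor.

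The 8 genes and the gene lists were chosen with earlier results of these data known. Genes named beyond them are Tet1, every called gene of the 3 lists, fixed members of those lists (Ppara, Ppard, Rxra, Nr1h3, Lpl, Plin2, Scarb1, Cideb, Mogat2, Fabp1 and Fabp5, with 1 more that is not reported here), the 6 genes nearest to Pparg by each measure of likeness, and the fat cell markers Adipoq, Lep and Plin1. Retn, Cfd, Adrb3, Lipe, Cd9, Rgs5, Crebbp, Ppargc1b and Fabp3 were named, and the sum of 5 fat cell markers was formed, after their values were seen. The alternatives were a replicate block, each mouse left out, DESeq2, scaling by RLE or by library size only, a prior count of 0.5, robust dispersions, and filters of none or of 10 counts in every library. Likeness without TET1 KO replicate 2, and the list of further PPARG targets without fat cell markers, were added after seeing the data, and the latter could not change the count of calls, since no gene it left out was called.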

Additional observations from a re-analysis of the deposited data

Results flagged for a closer look

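For 57 measures (the 8 genes, the genes named beside them and the sums over marker lists) the 4 TET1 KO livers were examined for a highest or lowest liver whose gap to the next, as a share of the range of the group, was above Dixon's critical value. Chance alone passes this limit in about 1 in 20 groups, and 14 of the 57 measures passed it. In 13 of the 14 the liver that stood apart was TET1 KO replicate 2. Among the genes followed, the gap was 0.979 of the range for Cidea (6.69 CPM in that liver), 0.970 for Fabp4 (52.0 CPM) and 0.878 for Cidec (3.66 CPM). Lpl followed with 0.871 (45.2 CPM). Among the fat cell markers the gap was 1.00 for Adipoq (4.23 CPM, 60 counts), 0.987 for Plin1 (4.93 CPM, 70 counts), 0.944 for Cfd (8.59 CPM), 0.923 for Retn (1.20 CPM, 17 counts) and 0.890 for Lep (0.423 CPM, 6 counts), and it was 0.982 for the sum of these 5 (19.4 CPM). Among relatives of the genes followed it was 0.953 for Fabp3 (3.94 CPM) and 0.876 for Mogat2, which rests on 5 counts in that liver (0.352 CPM). Rgs5, a stellate cell marker, stood apart downwards, at 13.7 CPM with a gap of 0.898. Several of these measures were named because they were high in that library, they come from 1 library and they are not independent of each other. The Plin4 of that library was the lowest of its group and its Cd36 not the highest. The part of fat cell transcripts in these values was not tested. The remaining measure was Rxra, where TET1 KO replicate 4 stood apart at 351 CPM with a gap of 0.911 of the range. Groups of 3, as in WT, were not examined in this way.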

How the results depend on the processing

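The median log2 fold change of the 8 genes moved between -2.44 and -1.60 over all alternatives, both ends of which came from leaving out a mouse. Fabp4 was the only one of the 8 to change sign, to -1.01 without TET1 KO replicate 2 and -0.16 with the replicate block. Counts of calls moved more. Over all genes, 129 were called higher and 169 lower; DESeq2 gave 693 and 707, no filter on low counts 245 and 347, and scaling by library size only 107 and 312, which moves the split of calls towards lower. Leaving out 1 mouse gave 16 to 427 higher and 22 to 464 lower calls, fewest without WT replicate 2 and most without TET1 KO replicate 4. The 0 calls among PPAR receptors, partners and coregulators became 2 with DESeq2 and 0 to 2 with a mouse left out. The 5 calls among further PPARG targets became 12 with DESeq2, 8 without a filter, 3 with robust dispersions and 0 to 7 with a mouse left out, and the 1 call among relatives became 3 with DESeq2 and 0 to 1. The replicate numbers did not pair the samples, since same-numbered mice had correlations of deviations of 0.21, -0.12 and -0.10. With the replicate block 670 genes were called higher and 656 lower, 2 among PPAR partners and 8 among further targets. The median likeness rank of the 7 targets, 3485 over the 7 livers and 3566 within genotype, was 1336 and 438 without TET1 KO replicate 2, an alternative added after seeing the data. In each case the cause was not tested. At least 10 counts in every library left out Cidea and Mogat1, which then had no value. Depth limits Cidea and Mogat1 in TET1 KO livers, where 1 CPM stands for 14.2 to 21.6 counts.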

Other observations

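Fabp3, the fatty acid binding protein of heart and muscle, which was too low to be tested, had 56 counts in TET1 KO replicate 2, 4 in TET1 KO replicate 4 and 0 in the other 5 libraries. Scd1, the desaturase that makes monounsaturated fatty acids and a listed PPARG target, had 3370, 7470 and 2440 CPM in WT and 2280, 668, 635 and 2620 CPM in TET1 KO replicates 1 to 4, with a log2 fold change of -1.51 (SE 0.54, adjusted p = 0.121 in edgeR's test), and the groups overlapped. Its order among the TET1 KO livers differed from that of Pparg, with TET1 KO replicate 4 highest. Angptl4, a secreted inhibitor of lipoprotein lipase and a target of several PPARs, had a mean of 74.1 CPM in WT, from 56.1, 90.0 and 76.2 CPM. Its mean was 120 CPM, from 137, 80.4, 111 and 151 CPM, in TET1 KO replicates 1 to 4, and the groups overlapped. The log2 fold change of Angptl4 was 0.69 (SE 0.22, adjusted p = 0.0977). Dgat2, which makes the last step of triglyceride synthesis, had 371 to 458 CPM in WT and 356 to 441 CPM in TET1 KO livers, and its log2 fold change was -0.01 (SE 0.15, adjusted p = 0.963). Scd1, Angptl4 and Dgat2 were chosen after their values were seen.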
